A study of Mus musculus with 6 samples.

Results

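The genes described here are 10 immediate early genes, chosen by symbol from the count table. They are Fos, Fosb, Jun, Junb, Jund, Atf3, Egr1, Egr2 and Egr3, of the AP-1 and EGR families, and Ier2, which belongs to neither. All 10 were present among the 22377 genes listed, and all 10 passed the filter on low counts that left 13884 genes for testing. The study asked which genes differ between tumor-associated macrophages (TAMs) of mice with both copies of Npm1 and of Npm1-haploinsufficient mice, Npm1 encoding the nucleolar protein nucleophosmin. According to its methods and results, CD45+ CD11b+ F4/80+ cells were sorted from subcutaneous tumors grown in young adult mice of both sexes. The tumor line, given in its results, was LLC, a mouse Lewis lung carcinoma line. The 3 libraries titled wt are taken here to be from the Npm1+/+ hosts of its sequencing methods. Its tumor model methods instead write the implanted genotypes as Npm1+/- and Npm1UTR+/-. The 3 titled ko are given the treatment knockdown in their labels, whereas the group that the study names for this sequencing is Npm1+/-, a deficiency of the whole host that is not restricted to macrophages. LLC cells were implanted in both groups, and the sex of the host behind each library is not given. The labels further name tumor tissue, TRIzol and a small RNA protocol, where the study's methods name sorted cells, a column kit and full-length cDNA. Each library is labelled as a separate biological sample, but a legend of the study gives fewer mice than there are libraries per group. Whether every library came from a separate mouse is therefore not known, and p-values measure only the spread between these samples, which may be technical.

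Immediate early genes are transcribed within minutes of a stimulus, without new protein synthesis, because the factors that switch them on, such as serum response factor with its ELK partners and CREB, are already bound or ready in the nucleus. FOS and JUN proteins pair through leucine zippers to form AP-1, ATF3 is a stress-induced member of the same zipper class, and EGR proteins bind GC-rich sites through zinc fingers. In macrophages these genes respond to Toll-like receptor ligands, growth factors and cell adhesion, and they are also known to respond to enzymatic digestion and sorting of tissue.

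Total counts ranged from 36550775 to 38147320 per library. No gene passed an adjusted p-value of 0.05 in edgeR's quasi-likelihood test (0 of 13884 genes, 0.0% called, with 2112 genes at an unadjusted p under 0.05), against 36 genes in DESeq2. Npm1 itself stood at 142, 380.2 and 381 CPM (read counts scaled for library size, with TMM normalization) in wt replicates 1, 2 and 3 and at 441, 499 and 343 in ko replicates 1, 2 and 3. Its log2 difference was 0.51 ± 0.36 (SE; edgeR adjusted p = 0.436), and 0.16 without wt replicate 1, and it was above 0 in all 16 alternatives. Since Npm1 mRNA was not lower in the libraries labelled ko, directions below are between libraries as labelled. The library labelled wt replicate 1 stood apart, at -108 on a first principal component holding 68.0% of the variance, with the others between -4.54 and 52.0. None of the 14 macrophage markers was at 0 in all libraries, and their summed CPM ran from 22349.7 to 27544 in wt and from 13409 to 22732 in libraries labelled ko. All 14 had a lower estimate in libraries labelled ko (median log2 fold change -0.53, 0 called), and in 8 the groups did not overlap, where 12.6% of all genes tested were lower without overlap. T cell markers summed to between 33.6 and 126 CPM in wt and between 100.4 and 280.0 in libraries labelled ko, with all 9 tested genes estimated higher, and neutrophil markers to between 1843 and 2068 and between 825 and 1578, with all 10 estimated lower. Sums for fibroblast markers were 4472 to 5803 and 3079 to 4711 CPM, in wt and ko order, although 10 of the 12 genes had a higher estimate. NK cell markers summed to 82.0 to 146 and 126 to 283 CPM, epithelial or carcinoma markers to 36.1 to 138 and 129 to 192, and dendritic cell markers to 331 to 506 and 409 to 528. B cell markers (6.54 to 38.8 and 12.7 to 64.5) and endothelial markers (34.5 to 43.2 and 32.9 to 36.9) were low. The part of these cell types in the results below was not tested, and in bulk RNA fewer cells of a type cannot be told apart from less RNA per cell.

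Most of these genes were abundant in these libraries. On the deposited FPKM scale, which divides by a gene length, the median level over the 6 libraries was 611 for Junb and 566 for Fos. This placed them 129th and 141st of all genes listed. The lengths used are not given in the sources. Those that counts and FPKM imply for Jund and Egr2 exceed the whole GENCODE spans of these genes, given below. Comparisons of level between genes therefore hold only for the lengths used. Atf3 followed at 358, Jun at 336, Jund at 223, Ier2 at 174, Egr1 at 141 and Fosb at 130.2 FPKM. Egr2 was far lower at 10.0 and Egr3 lowest at 2.63 FPKM. Some neighbours in this order could not be separated. Junb exceeded Fos in 4 of 6 libraries, Atf3 exceeded Jun in 4 and Egr1 exceeded Fosb in 3, and in each of these pairs the ranges overlapped. Jund exceeded Ier2 and Ier2 exceeded Egr1 in all 6, again with overlapping ranges. Fos lay above Atf3, Jun above Jund, Fosb above Egr2 and Egr2 above Egr3 in all 6 libraries with ranges that did not meet. With a length no greater than its GENCODE span, Jund would stand higher, and its place below Jun is not secure. Together the 10 genes took 0.743, 0.519 and 0.559% of all counts in wt replicates 1, 2 and 3 and 0.618, 0.584 and 0.622% in ko replicates 1, 2 and 3, so that the highest share was in the wt library that stood apart and the groups overlapped.

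**Figure D1:**
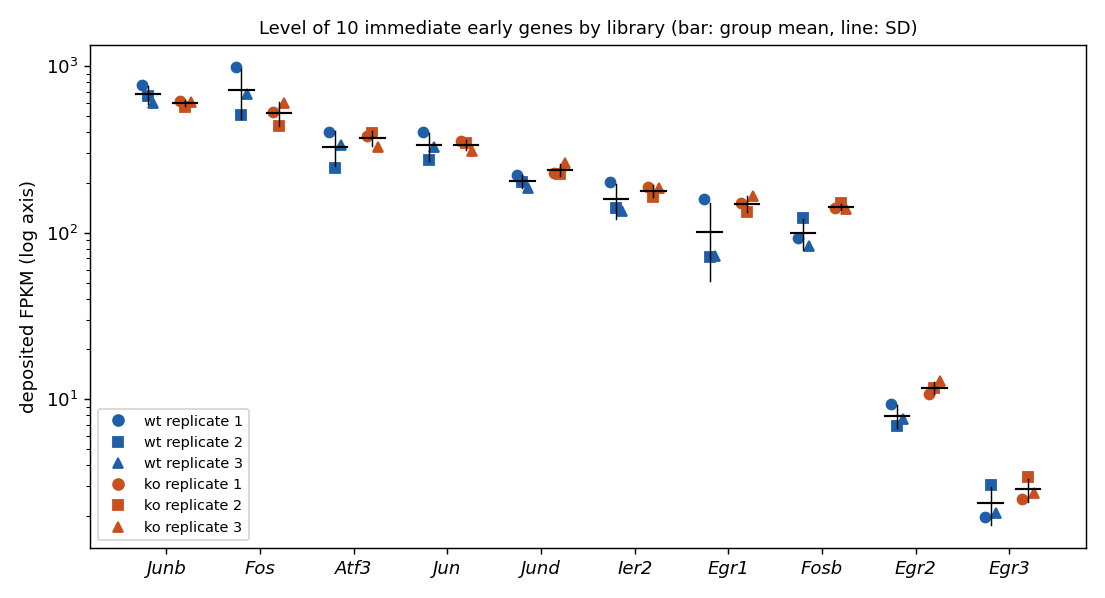
Deposited FPKM (vertical axis, logarithmic) of the 10 genes in each of the 6 libraries, ordered by median level, with blue for wt, orange for libraries labelled ko, symbols for the replicate number, and bars and lines for the mean and SD of 3 libraries. The points of Fosb, Jund and Egr2 do not overlap between the groups on this scale, and those of the other 7 genes do.

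Promoter sequences are shown for 3 of the genes. Fos and Fosb are paralogs whose estimates pointed in opposite directions, and Egr2 was the gene whose groups did not overlap on either scale. RefSeq windows from 250 bases before to 50 after a transcription start (GRCm38.p6) were found for 7 of the 10 genes, and Egr1, Egr3 and Ier2 had none. Fos is shown from chr12:85473640-85473939 on the plus strand, Fosb from chr7:19309996-19310295 on the minus strand, and Egr2 from chr10:67537619-67537918 on the plus strand, which is 1 of 5 Egr2 windows and the first by position of the 3 that held the most matches. Capitals mark TGACG, the core of the cAMP response element, or its reverse complement, in all 3, GCGGGGGCG, an EGR site, in Fosb, and the CArG box of serum response factor in Egr2.
Fos: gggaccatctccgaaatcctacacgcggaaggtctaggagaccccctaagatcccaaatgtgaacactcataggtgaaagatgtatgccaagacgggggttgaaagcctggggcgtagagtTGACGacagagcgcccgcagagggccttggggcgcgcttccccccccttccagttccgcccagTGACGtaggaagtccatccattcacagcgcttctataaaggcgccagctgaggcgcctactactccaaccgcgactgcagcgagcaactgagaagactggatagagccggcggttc
Fosb: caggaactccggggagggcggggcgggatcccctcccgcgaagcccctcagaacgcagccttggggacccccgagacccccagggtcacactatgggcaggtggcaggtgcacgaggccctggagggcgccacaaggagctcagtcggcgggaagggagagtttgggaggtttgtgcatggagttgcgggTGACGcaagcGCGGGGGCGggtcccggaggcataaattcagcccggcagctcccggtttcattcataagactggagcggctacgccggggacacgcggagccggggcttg
Egr2: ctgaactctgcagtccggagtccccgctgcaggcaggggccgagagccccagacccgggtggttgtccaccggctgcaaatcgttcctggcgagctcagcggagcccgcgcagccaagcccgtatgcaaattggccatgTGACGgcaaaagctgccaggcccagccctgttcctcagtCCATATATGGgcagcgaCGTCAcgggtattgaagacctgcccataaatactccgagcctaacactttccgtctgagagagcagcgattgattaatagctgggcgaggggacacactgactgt
Fos held TGACG at bases 122 and 185 of the window and Fosb at base 191, 60 bases before the start, followed by GCGGGGGCG at base 201. In Egr2 the CArG box began at base 179 and lay between matches at bases 140 and 196. Over 32817 promoter windows, TGACG on either strand was found in 20.8%, GCGGGGGCG in 2.91% and the CArG box in 1.63%. TGACG was also found in Junb at base 145 and in Atf3 at base 244, 7 bases before the start. Jun held TGACATCA at base 206, a sequence present in 3.62% of windows. Also searched on both strands was TGACGTCA, the full cAMP response element, which contains TGACG and was found in 1.79% of windows. The AP-1 site TGAGTCA was found in 5.20% and the EGR site GCGTGGGCG in 0.612%. None of these last 3 motifs was found in the windows of the 7 genes. Jund held none of the motifs. These matches describe the letters of the windows, and no binding was measured. Sequence outside the windows was not searched, so a motif missing from a window may lie elsewhere near the gene.

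Of the FOS family, Fos stood lower and Fosb higher in libraries labelled ko, and neither difference passed the test. The level of Fos, the prototype partner of JUN, was 2219, 1144 and 1449.6 CPM in wt replicates 1, 2 and 3 and 1061, 799.6 and 1315 in ko replicates 1, 2 and 3. The highest value was in wt replicate 1 and the lowest in ko replicate 2, and the groups overlapped because ko replicate 3 exceeded wt replicate 2. The means were 1604 ± 554 and 1058 ± 258 CPM (SD, n = 3 each), a log2 difference of -0.60 ± 0.28 (SE) with adjusted p = 0.334 in edgeR and p = 0.2 in a two-sided exact permutation test over libraries. Without wt replicate 1 it was -0.30. Fosb, a related subunit that includes the long-lived splice form known as delta FosB, was at 375, 496 and 318 CPM in wt and at 508, 493 and 537 in libraries labelled ko. The libraries labelled ko lay close together, with a mean of 513 ± 22.5 CPM (SD, n = 3) against 397 ± 90.8 in wt, and wt replicate 2 lay just above ko replicate 2. The log2 difference of Fosb was 0.37 ± 0.18 (SE; edgeR adjusted p = 0.334, exact permutation p = 0.2). It was 0.56 without wt replicate 2 and 0.22 without wt replicate 3. On the FPKM scale, which has no TMM scaling, Fosb was at 92.6, 123 and 82.9 in wt and at 141, 149.8 and 138 in libraries labelled ko, without overlap.

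In the JUN family, Junb had a lower estimate in libraries labelled ko, those of Jun and Jund were nearer to 0, and none passed the test. Jun, the prototype AP-1 subunit, was at 1377, 931 and 1057 CPM in wt and at 1079, 963 and 1021 in libraries labelled ko, so that all 3 of the latter lay within the wt range. Its log2 difference was -0.14 ± 0.17 (SE; edgeR adjusted p = 0.656, exact permutation p = 0.7), and the sign turned to 0.035 without wt replicate 1 and to 0.031 on log2 FPKM plus 1. Junb, a weaker activator that can oppose JUN, was at 1515, 1307 and 1124 CPM in wt and at 1077, 913 and 1154 in libraries labelled ko. Only ko replicate 3 exceeded a wt library, and the means were 1315 ± 195 and 1048 ± 123 CPM (SD, n = 3 each). This gave a log2 difference of -0.33 ± 0.17 (SE; edgeR adjusted p = 0.347, exact permutation p = 0.2), and -0.22 without wt replicate 1. Jund, the subunit that most resting cells express constitutively, was at 684, 619.9 and 545 CPM in wt and at 629, 565 and 778 in libraries labelled ko, with a log2 difference of 0.09 ± 0.16 (SE; edgeR adjusted p = 0.756, exact permutation p = 0.6). On the FPKM scale the groups of Jund did not overlap, at 222, 201 and 186 against 229, 225 and 262, whereas after TMM scaling they did.

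Atf3, which represses many inflammatory promoters and is induced by stress, was the gene with the smallest difference. It was at 852, 521 and 675 CPM in wt and at 715, 688 and 666 in libraries labelled ko. The spread within wt was wide (SD 165 around 683 CPM, n = 3) and that in libraries labelled ko narrow (SD 24.6 around 689 CPM, n = 3). The log2 difference was 0.014 ± 0.19 (SE; edgeR adjusted p = 0.969, exact permutation p = 0.8), and its sign turned in 5 of 16 alternatives. Ier2, a nuclear protein named for its immediate early response and outside both families, was at 328, 228 and 208 CPM in wt and at 274, 216 and 291 in libraries labelled ko. All 3 of the latter lay within the wt range, and the log2 difference was 0.030 ± 0.20 (SE; edgeR adjusted p = 0.939, exact permutation p = 0.9).

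All 3 EGR genes had estimates above 0. Egr1, a zinc finger activator that is among the fastest genes to respond to ERK signalling, was at 521, 236 and 226 CPM in wt and at 438, 356 and 527 in libraries labelled ko. Wt replicate 1 lay with the libraries labelled ko and the other 2 wt libraries lay below all of them. The means were 328 ± 167 and 440.3 ± 85.6 CPM (SD, n = 3 each), and the log2 difference was 0.43 ± 0.34 (SE; edgeR adjusted p = 0.471, exact permutation p = 0.3). This estimate depended on single libraries. It was 0.93 without wt replicate 1, when the groups no longer overlapped, and 0.20 without wt replicate 3. The share of all genes without overlap was not computed without wt replicate 1. DESeq2 without wt replicate 1 and ko replicate 3 was the one alternative in which any of the 10 genes was called. There the log2 difference of Egr1 was 0.74 (adjusted p = 0.00146, within a range of 0.00146 to 0.745 over all alternatives), in a fit that called 10.6% of genes, 4.42% as higher and 6.23% as lower, while edgeR on the same 4 libraries gave 0.78 with an adjusted p of 0.101. Of the libraries left out, wt replicate 1 stood apart on the first principal component (-108). Ko replicate 3 did not, at 11.7, and lay nearer to wt replicates 2 and 3 (7.92 and -4.54) than ko replicates 1 and 2 did (41.4 and 52.0). The part of this choice of libraries in the calls was not tested.

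Egr2, which is required for myelination and takes part in macrophage and lymphocyte differentiation, was at 91.2, 66.8 and 70.7 CPM in wt and at 92.9, 92.0 and 120.1 in libraries labelled ko. It was the one gene of the 10 whose groups did not overlap after TMM scaling, where 13.3% of all genes tested were higher without overlap. Wt replicate 1 and ko replicate 2 differed by less than 1 CPM. The means were 76.2 ± 13.1 and 102 ± 16.0 CPM (SD, n = 3 each). The log2 difference was 0.42 ± 0.17 (SE; edgeR adjusted p = 0.328, exact permutation p = 0.1, the smallest that 3 against 3 libraries allow), and it stayed between 0.27 and 0.56 in all 16 alternatives. Its unadjusted p was 0.0416, and 6.9% of all genes tested were higher with an unadjusted p under 0.05. Egr3, a close relative, was at 8.66, 13.6 and 8.77 CPM in wt and at 9.87, 12.2 and 11.7 in libraries labelled ko. Its lowest count was 308, in wt replicate 1. Its log2 difference was 0.12 ± 0.23 (SE; edgeR adjusted p = 0.766, exact permutation p = 0.6), and it was 0.37 without wt replicate 2 and 0.0022 without wt replicate 3.

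Of the 10 genes, 7 had a higher and 3 a lower estimate, and 0 were called by edgeR on all 6 libraries or by DESeq2 on all 6, which called 0.263% of all genes. The median log2 fold change was 0.061, against 0.022 over all genes tested, and the median size without sign was 0.23, against 0.31. After TMM scaling the groups did not overlap in 1 gene that was higher and in 0 that were lower, where 13.3% of all genes tested were higher and 12.6% lower without overlap. On the FPKM scale these counts were 3 and 0, against 18.6% and 6.88%. The TMM factors, by which the total of each library is multiplied, were 0.933, 0.933 and 0.983 in wt and 1.05, 1.15 and 0.969 in libraries labelled ko. Relative to TMM, limma on log2 FPKM plus 0.1 moved the median of all genes by 0.14, and limma on log2 FPKM plus 1 moved it by 0.070. The spread within a group had a median SD of log2 CPM of 0.24 for these genes, 0.28 for all genes tested and 0.20 for the 1919 genes with a mean of at least 100 CPM. Egr1 (0.52) and Fos (0.43) varied most within a group. Wt replicate 1 was the highest library for 5 genes, Fos, Jun, Junb, Atf3 and Ier2, and ko replicate 3 for 4, Fosb, Jund, Egr1 and Egr2.

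**Figure D2:**
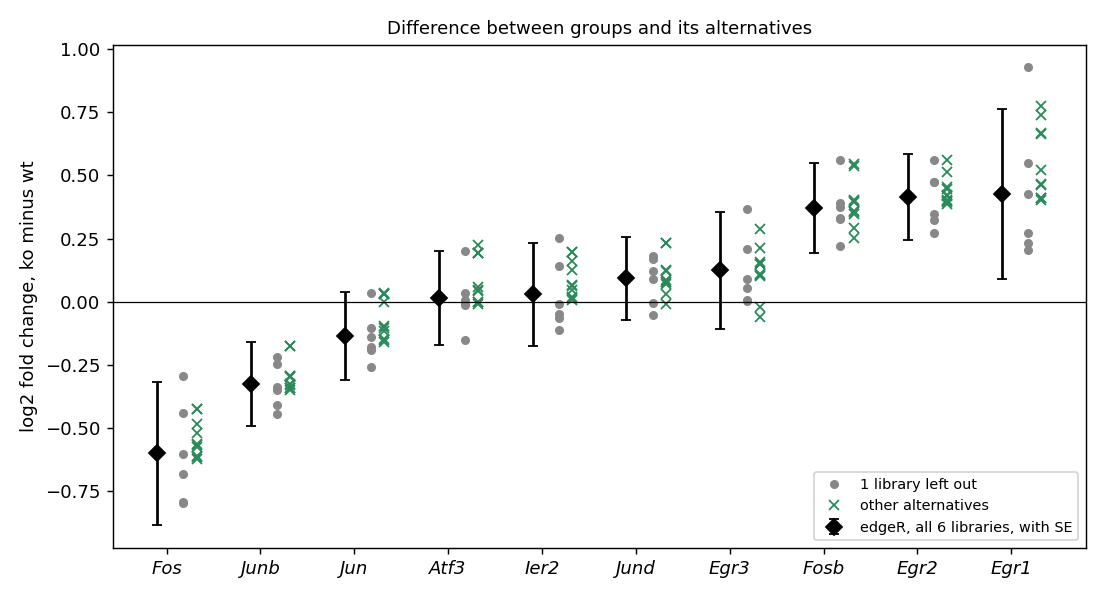
Log2 fold change of the 10 genes (vertical axis, libraries labelled ko minus wt) from edgeR on all 6 libraries with its standard error (black), with each library left out in turn (gray) and under the other alternatives (green). Fos and Junb stay below 0 and Fosb, Egr1 and Egr2 above 0 at every point, and the other 5 genes fall on both sides.

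The balance among the 10 genes was then compared within libraries, since a ratio of 2 genes from the same library does not depend on how libraries are scaled. Among the 45 pairs, the ratio did not overlap between the groups in 15 (33.3%), where 24.3% of all pairs of tested genes did not overlap. The 45 pairs share genes and are not independent, and no test was made of this count. Without wt replicate 1 it was 22, and with fewer libraries such separation is more frequent. Fos, Junb and Egr2 each took part in 5 of the 15 pairs and Egr3 in 0. The ratio of Fos to Egr1 was 6.20, 7.06 and 9.33 in wt and 3.53, 3.27 and 3.63 in libraries labelled ko, with means of 7.53 ± 1.61 and 3.48 ± 0.185 (SD, n = 3 each). Fos to Egr2 gave 105, 73.8 and 88.3 against 49.2, 37.4 and 47.1. Thus Fos was less abundant relative to both Egr1 and Egr2 in each library labelled ko than in any wt library, including wt replicate 1. Both pairs were picked from the 15 that separated, and the ratios of Fos with Junb, Jun, Fosb and Egr3 overlapped between the groups.

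Junb showed the same kind of shift against Jund. The ratio of Junb to Jund was 3.46, 3.30 and 3.22 in wt and 2.68, 2.53 and 2.32 in libraries labelled ko, and the spread within each group (SD 0.121 and 0.18) was small beside the difference of the means, 3.33 and 2.51. Junb to Fosb was 8.29, 5.40 and 7.25 against 4.36, 3.80 and 4.41. By contrast, the ratio of Fos to Fosb overlapped, at 10.6, 4.13 and 8.15 against 3.74, 2.90 and 4.38, with wt replicate 2 low in Fos and high in Fosb. Atf3 to Jun was the one separated pair with the higher ratio in libraries labelled ko when the more abundant gene is taken over the less abundant one, at 0.997, 0.903 and 1.03 against 1.07, 1.15 and 1.05. These pairs were picked out after their values were seen.

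**Figure D3:**
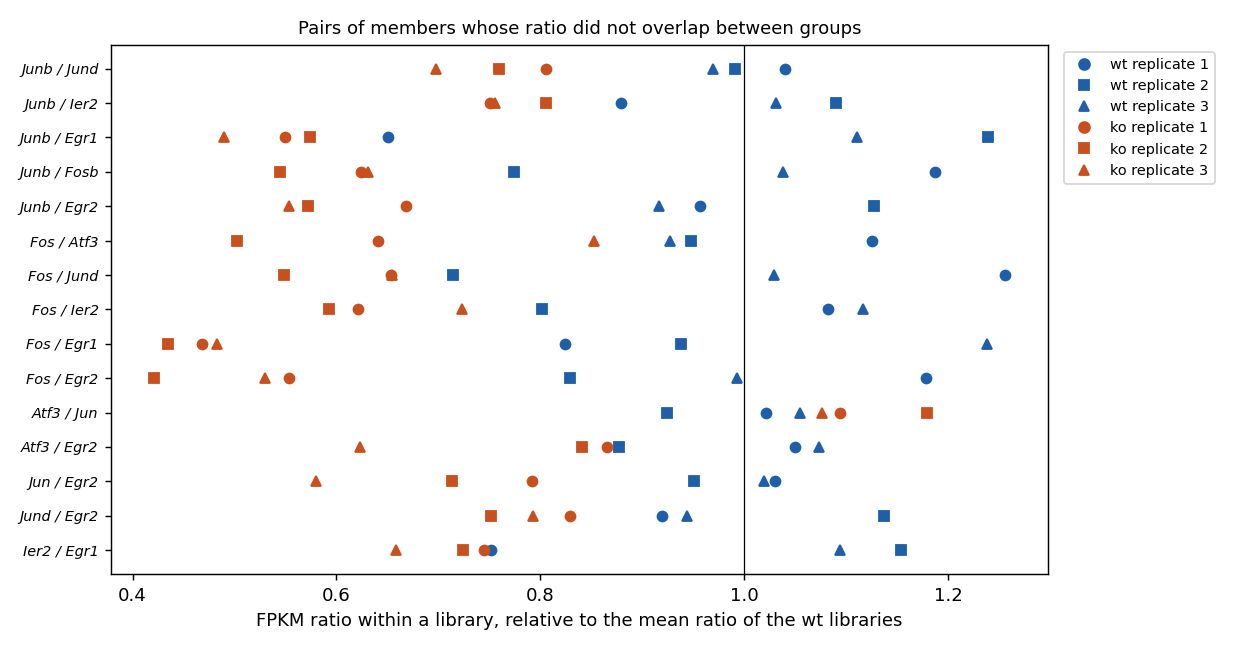
FPKM ratios of the 15 separated pairs (rows) in each library, divided by the mean ratio of the 3 wt libraries (horizontal axis, 1 is the wt mean), with blue for wt and orange for libraries labelled ko. In 14 pairs the orange points lie to the left of the blue ones, and in the pair of Atf3 and Jun they lie to the right.

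Further genes of these pathways were taken from lists. Of all genes tested, 6.9% were higher and 8.31% lower at an unadjusted p under 0.05, and 13.3% were higher and 12.6% lower without overlap of the groups, and the counts below are to be read beside these shares. Among 20 relatives of the AP-1 and EGR families and their cofactors, edgeR called 0, with 1 higher and 6 lower at an unadjusted p under 0.05, and the groups did not overlap in 1 higher and 7 lower genes (13.3% and 12.6% of all genes). The median log2 fold change of the list was -0.22. The smallest p-value among them was that of Nab2, a corepressor that binds EGR proteins and is itself induced by them, at 54.9, 38.6 and 38.7 CPM in wt and at 25.6, 22.6 and 24.9 in libraries labelled ko. All 3 of the latter lay below the lowest wt library. The log2 difference of Nab2 was -0.85 ± 0.17 (SE; edgeR adjusted p = 0.328), and it was called by DESeq2, with an adjusted p of 0.0439 in a range of 0.00594 to 0.701 over all alternatives. Batf2, a zipper protein induced by interferon, was at 5.28 ± 1.60 CPM (SD, n = 3) in wt and 2.56 ± 0.321 in libraries labelled ko (log2 fold change -1.04, adjusted p = 0.328). Atf4, the effector of the integrated stress response, was at 328 ± 29.6 and 455 ± 64.7 CPM (0.47, adjusted p = 0.328), and Fosl1, which encodes FRA1, at 40.2 ± 22.9 and 74.5 ± 17.1 (0.89, adjusted p = 0.331). The difference of Fosl1 was 0.55 without wt replicate 1 and 1.41 without wt replicate 2.

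Among the upstream kinases and serum response factors, 24 genes were tested and edgeR called 0. Estimates were higher for 5 and lower for 19, with 0 and 4 at an unadjusted p under 0.05, and the groups did not overlap in 0 higher and 6 lower genes (13.3% and 12.6% of all genes). Their median was -0.23. Elk1, the partner of serum response factor that ERK phosphorylates, was at 28.5 ± 2.03 CPM in wt and 18.4 ± 2.24 in libraries labelled ko (SD, n = 3 each; log2 fold change -0.63, adjusted p = 0.328). For Rps6ka1, which encodes the ERK-activated kinase RSK1, the values were 92.8 ± 33.9 and 52.1 ± 10.0 CPM (-0.83, adjusted p = 0.328, and -0.50 without wt replicate 1). Braf (0.26, adjusted p = 0.472) and Mapk8, which encodes JNK1 (0.099, adjusted p = 0.662), had the smallest p-values among the higher genes. Braf was at 0.098 without wt replicate 1 and 0.50 without wt replicate 3, and Mapk8 between -0.023 and 0.16 with libraries left out. Macrophage markers, whose median was -0.53, also had lower estimates, and their part in this list was not tested.

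The 48 other immediate early genes were spread to both sides. edgeR called 0, with 8 higher and 7 lower at an unadjusted p under 0.05, and the groups did not overlap in 9 higher and 7 lower genes, with a median of -0.12. Dusp4, a phosphatase that limits ERK and JNK in the nucleus, was at 29.2 ± 9.70 CPM in wt and 68.3 ± 25.1 in libraries labelled ko (log2 difference 1.23 ± 0.34, SE; adjusted p = 0.328). Hbegf, a ligand of the EGF receptor, was at 23.7 ± 4.34 and 35.7 ± 3.72 CPM (0.59, adjusted p = 0.328). Id3, an inhibitor of helix-loop-helix factors, was at 72.9 ± 20.6 and 41.3 ± 5.32 CPM (-0.82, adjusted p = 0.328), and Cebpb, a zipper factor of myeloid cells, at 1346 ± 371 and 764 ± 230.2 (-0.82, adjusted p = 0.328). In all 4 the groups did not overlap.

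Of 24 genes known as targets of AP-1 or EGR proteins, 0 were called, 3 were higher and 3 lower at an unadjusted p under 0.05, and the median was -0.20. Without overlap 3 were higher and 3 lower, close to the 13.3% and 12.6% of all genes. Tnf, the gene of the cytokine TNF, was at 443 ± 85.4 CPM in wt and 729 ± 35.9 in libraries labelled ko (log2 difference 0.72 ± 0.16, SE; adjusted p = 0.328). Odc1, the first enzyme of polyamine synthesis, was at 657 ± 214 and 1049 ± 112 CPM (0.67). Tgfb1 was at 476 ± 104 and 299.7 ± 71.9 CPM (-0.67), and Vegfa at 645 ± 3.62 and 446 ± 108 (-0.53), each with an adjusted p of 0.328.

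Heat shock genes, which tissue dissociation is also known to induce, were examined because the immediate early genes share this property. Of 14 tested, 0 were called, 3 were higher and 2 lower at an unadjusted p under 0.05, 3 were higher and 2 lower without overlap, and the median was 0.25. Their summed level overlapped between the groups, at 9211 to 10041 CPM in wt and 8455 to 10316 in libraries labelled ko. Hspd1 and Hspe1, the chaperonin of mitochondria, had log2 fold changes of 0.77 and 0.53, and the inducible Hspa1b and Hspa1a of -0.66 and -0.64, each with an adjusted p of 0.328. Hspa1a and Hspa1b are nearly identical copies, so that the share of reads given to each is uncertain.

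Calls in these lists also depended on the libraries and the tool. DESeq2 without wt replicate 1 and ko replicate 3, which called 10.6% of all genes, called 14 of the 20 genes named from the lists, with adjusted p-values from 1.2e-05 to 0.0436. They were Atf4, Fosl1, Nab2, Dusp4, Id3, Cebpb, Elk1, Rps6ka1, Tnf, Tgfb1, Vegfa, Hspd1, Hspe1 and Hspa1b, each in the direction given above. The 20 named genes had been picked by their edgeR p-values on all 6 libraries, which include these 4. The count of 14 can therefore not be read against the 10.6% of all genes. Over whole lists this DESeq2 fit called 3 relatives higher and 5 lower of 19, and 4 other immediate early genes higher and 12 lower of 48. Of 24 upstream factors it called 0 higher and 3 lower, of 24 targets 2 higher and 9 lower, and of 14 heat shock genes 2 higher and 1 lower. edgeR on the same 4 libraries called 0 genes, with 3290 at an unadjusted p under 0.05.

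**Figure D4:**
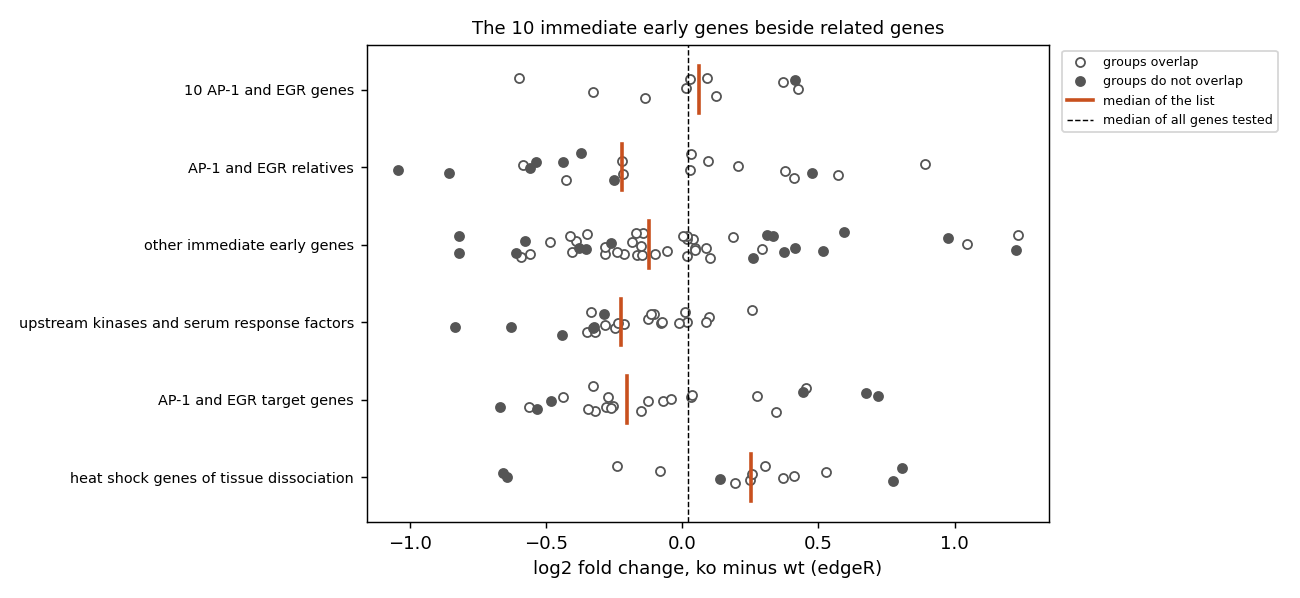
Log2 fold change (horizontal axis, libraries labelled ko minus wt) of the 10 genes and of 5 lists of related genes (rows), 1 point per gene, filled where the groups do not overlap, with the list median in orange and the median of all genes as a dashed line. The median of the 10 genes lies at 0.061 beside that of all genes, those of the relatives, other immediate early genes, upstream factors and targets lie below 0, and that of the heat shock genes lies at 0.25.

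The mean profile of the 10 genes over the 6 libraries, on log2 CPM centred for each gene, was 0.24, -0.12 and -0.21 in wt replicates 1, 2 and 3 and 0.026, -0.11 and 0.18 in ko replicates 1, 2 and 3. Among 8082 other genes with a mean of at least 10 CPM, those with the smallest root mean square difference from this profile were Tbcd (0.049), Prdx3 (0.051), Mrps33 (0.056), Smim7 (0.058) and Etfb (0.061), on the log2 scale. None of these belongs to the lists used here, and the profile itself spans a narrow range. It is an average of genes that differed from each other. In wt replicate 1 the centred values ran from -0.30 for Egr3 to 0.81 for Fos, and in ko replicate 2 from -0.66 for Fos to 0.20 for Egr3.

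In the GENCODE annotation of GRCm38, the build that corresponds to the mm10 named in the submitters' processing notes, Fos lies on chromosome 12 from 85473890 to 85477273 and Fosb on chromosome 7 from 19302696 to 19310051. Jun lies on chromosome 4 from 95049034 to 95052222. Junb, Jund and Ier2 all lie on chromosome 8, from 84974484 to 84978718, from 70698949 to 70700616 and from 84661331 to 84662852. Atf3 lies on chromosome 1 from 191170296 to 191218039, Egr1 on chromosome 18 from 34859823 to 34864984, Egr2 on chromosome 10 from 67535475 to 67542188 and Egr3 on chromosome 14 from 70077203 to 70082614. All are protein-coding. Jun overlaps the antisense gene Junos, which had 341 to 530 counts per library, and Junb overlaps Prdx2 on the opposite strand, which had 5157 to 6716. Jund and Atf3 overlap the noncoding genes Gm11175 and Gm24748. The sources do not state whether the counting used strand, so some reads of these 4 genes could belong to their neighbours.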

How the data were processed

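RNA of tumor macrophages, sorted according to the study's methods, was sequenced in 6 libraries, 3 titled wt and 3 titled ko. The authors deposited raw counts per gene and FPKM values, the latter matching counts per kilobase of a fixed gene length and library total. The submitters' notes name mm10, and the aligner, counter and annotation are not given in the sources used here. All measured columns were mapped by title (0 unmapped). Counts were fitted with edgeR 4.0.16 in R 4.3.3 (filterByExpr, TMM, glmQLFit, glmQLFTest) with Benjamini-Hochberg adjustment over 13884 genes at 0.05. Standard errors (SE) were taken from the estimate and the F statistic, and log2 CPM used a prior count of 2. Exact permutation tests (SciPy 1.17.1) were two-sided. Related genes were chosen as the 2 smallest p-values in each direction per list. Alternatives used DESeq2 1.42.0, limma 3.58.1 on log2 FPKM plus 1 or 0.1, other scalings, other filters, a block for replicate number and libraries left out. The fits were tested on simulated data. The genes and lists were chosen with earlier results of these data known.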

Additional observations from a re-analysis of the deposited data

How the results depend on the processing

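With 3 libraries per group, the groups were too small for a formal outlier test of single libraries. Each library was instead left out in turn. The lowest count of any of the 10 genes was 308. Over 16 alternatives, Fos stayed between -0.80 and -0.30, Junb between -0.44 and -0.17, Fosb between 0.22 and 0.56, Egr2 between 0.27 and 0.56 and Egr1 between 0.20 and 0.93 on the log2 scale. The number of genes called was 0 in every edgeR and limma fit, 36 in DESeq2 and 1284 in DESeq2 without wt replicate 1 and ko replicate 3. That last fit called 1 of the 10 genes, Egr1, and 14 of the 20 genes named from the lists. Those 20 had been picked by p-value from these data. DESeq2 on all libraries called 1 relative, Nab2. The cause of these differences between fits was not tested.

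Signs of small estimates turned. With 1 library, or wt replicate 1 and ko replicate 3, left out, estimates ranged from -0.15 to 0.23 for Atf3, from -0.11 to 0.25 for Ier2, from -0.052 to 0.18 for Jund, from -0.26 to 0.035 for Jun, from -0.021 to 0.37 for Egr3 and from -0.023 to 0.16 for Mapk8. Atf3 was -0.00044 with RLE scaling and -0.0082 with DESeq2, and Jun was 0.0314 and 0.0315 with limma on log2 FPKM plus 1 and plus 0.1. Without wt replicate 1 and ko replicate 3, Jun was 0.034, and DESeq2 on these 4 libraries gave Egr3 -0.062, Jund -0.0076 and Mapk8 -0.059. With 1 library left out, list medians ranged from -0.29 to -0.10 for the relatives, from -0.24 to 0.0050 for the other immediate early genes, from -0.27 to -0.15 for the upstream factors, from -0.28 to 0.038 for the targets and from 0.11 to 0.38 for the heat shock genes. The count of genes among the 10 without overlap was 2, and that of their pairs with separate ratios 22, without wt replicate 1, both chosen after the data were examined. Such separation is more frequent with fewer libraries. The shares over all genes and all pairs were not computed without that library, so these counts have no background to be read against.

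Deviations of same-numbered libraries from their group means correlated at -0.241, 0.0605 and -0.337, which gave no sign of a pairing by number. With 3 libraries per group these values cannot settle whether the numbers mark a pairing. A fit with a replicate block called 0 genes (1606 at an unadjusted p under 0.05), gave a median of 0.066 over the 10 genes, -0.57 for Fos and 0.42 for Egr2, and changed no call.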
